A study of Mus musculus with 8 samples.

Results

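The AP-1 and Egr immediate-early transcription factors are described here in leukemic mouse spleen cells by 10 genes: Fos, Fosb, Fosl2, Jun, Junb, Jund, Atf3, Egr1, Egr2 and Egr3. All probe sets with a platform gene symbol among these 10 were taken, which gave 15 probe sets for 10 of the 18193 genes with a single symbol on the array. The truncated mice expressed CBFb-SMMHCd179-221, a form of the leukemia fusion CBFb-SMMHC that lacks part of its sequence, and were leukemic 3 weeks after birth. The full-length mice carried CBFb-SMMHC and were leukemic 2 months after treatment with the mutagen ENU, which the labels do not give for the truncated mice. Sample labels call the mice of each genotype chimeras, while the series text calls the full-length mice knock-in, so host cells without the fusion may be present in unknown number. Each genotype had 4 biotin-labelled Affymetrix arrays from 2 animals, of which animal 1 had a single array and animal 2 had 3. Fusion, age and ENU cannot be told apart.

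AP-1 is a dimer of a Fos protein with a Jun protein, or of Jun proteins with each other or with factors such as Atf3, that binds DNA through a basic leucine zipper. Egr proteins bind GC-rich DNA through zinc fingers and are held in check by the co-repressors Nab1 and Nab2. Many of these genes are silent or low in resting cells and are transcribed within minutes of a growth factor, cytokine or stress signal, without new protein synthesis. In myeloid cells, Egr1 and the AP-1 factors are known for their part in monocyte and macrophage differentiation, and handling of tissue is also known to induce them.

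The promoters of Fos, Jun and Atf3 are shown because Fos and Jun had the closest profiles of all members over the arrays, while Atf3, which can pair with Jun, had that profile in truncated mice alone. They are given as the bases just before the annotated gene start in RefSeq, build GRCm38.p6, written 5′ to 3′ on the gene's strand. Fos lies on the plus strand (chr12:85473640-85473889), Jun on the minus strand (chr4:95052223-95052472) and Atf3 on the minus strand (chr1:191183334-191183583). Capitals mark motif matches found on either strand.
Fos: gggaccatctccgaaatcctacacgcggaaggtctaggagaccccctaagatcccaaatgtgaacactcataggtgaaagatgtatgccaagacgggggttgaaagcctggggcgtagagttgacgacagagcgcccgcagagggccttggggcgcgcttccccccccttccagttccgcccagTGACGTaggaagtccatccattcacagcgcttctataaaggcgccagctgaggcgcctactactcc
Jun: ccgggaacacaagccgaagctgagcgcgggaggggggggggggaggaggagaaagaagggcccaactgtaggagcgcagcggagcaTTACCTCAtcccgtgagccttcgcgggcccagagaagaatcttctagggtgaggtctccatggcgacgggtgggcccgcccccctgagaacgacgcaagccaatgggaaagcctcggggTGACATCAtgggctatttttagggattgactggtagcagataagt
Atf3: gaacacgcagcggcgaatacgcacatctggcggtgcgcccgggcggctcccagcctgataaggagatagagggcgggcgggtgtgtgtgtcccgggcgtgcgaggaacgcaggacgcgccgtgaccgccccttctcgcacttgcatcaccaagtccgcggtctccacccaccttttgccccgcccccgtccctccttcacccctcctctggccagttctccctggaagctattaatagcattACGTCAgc

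The capitals in the Fos promoter are TGACGT, the core of the cyclic AMP response element, which starts 66 bases before the gene start. The same core lies on the opposite strand of the Atf3 promoter, from 8 bases before the gene start. The Jun promoter holds TGACATCA at 45 and TTACCTCA at 164 bases before the start, the letters of the proximal and distal AP-1-like elements known from the human JUN promoter. These 2 elements were added to the search after the promoter had been read. Of 32851 RefSeq promoter windows of 250 bases, 6.47% hold this core on either strand, 2.93% hold TGACATCA and 0.728% hold TTACCTCA. The whole element TGACGTCA, in 1.55% of windows and overlapping the core, has no match in the 250 bases shown for these 3 genes. Nor have the AP-1 site TGACTCA (4.46%), the CArG box bound by serum response factor (1.47%) or the Egr site GCGTGGGCG or GCGGGGGCG (3.06%). Bases further upstream were not searched, so a site there would not be seen. A match describes letters in this window and was not tied to binding.

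The arrays of a genotype fell into pairs that do not follow the animals. In truncated mice, the array of animal 1 correlated with array 1 of animal 2 at Pearson's r = 0.987 over all probe sets, while array 1 of animal 2 correlated with arrays 2 and 3 of the same animal at 0.976. In full-length mice these values were 0.989 between the animals and 0.954 within animal 2. Arrays 2 and 3 of animal 2 correlated at 0.997 in each genotype. The series text speaks of 2 independent experiments per genotype without saying which arrays belong to which, so what array number 1 shares across animals is not stated. The assignment of arrays to animals is taken from the labels and was not tested, and all animal means and SDs rest on it. Differences between genotypes are therefore also given within array number 1 and within arrays 2 and 3 for the members, and for most other genes shown by array.

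Fos, Fosb and Jun were high on arrays 2 and 3 of animal 2 in mice of each genotype, whereas Junb, Fosl2 and Egr3 varied less. In truncated mice Atf3, Egr1 and Egr2 were also higher on these arrays than on array number 1. In full-length mice Atf3 and Egr2 showed no such rise, and Egr1 was high on all arrays and slightly lower on arrays 2 and 3. This difference between genotypes was not tested. On animal means, 0 of the 9 members that passed the filter on low values were called between truncated and full-length mice (limma, Benjamini-Hochberg adjusted p under 0.05), against 0% of all 11417 genes tested. Without adjustment, 0 of 9 had a limma p under 0.05, against 8.81% of all genes in the higher direction in truncated mice and 5.29% in the lower. Animal 1 had array number 1 alone and animal 2 had all 3 numbers, so the spread between animals in this fit holds the difference between array numbers. A count of 0 therefore does not show that the genotypes are alike, and the closing section gives the counts under other ways of averaging the arrays. The 9 members had higher values in truncated mice in 6 cases and lower values in 3. Values below are log2 expression, listed for animal 1 and then for arrays 1, 2 and 3 of animal 2, and a difference is truncated minus full-length.

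**Figure D1:**
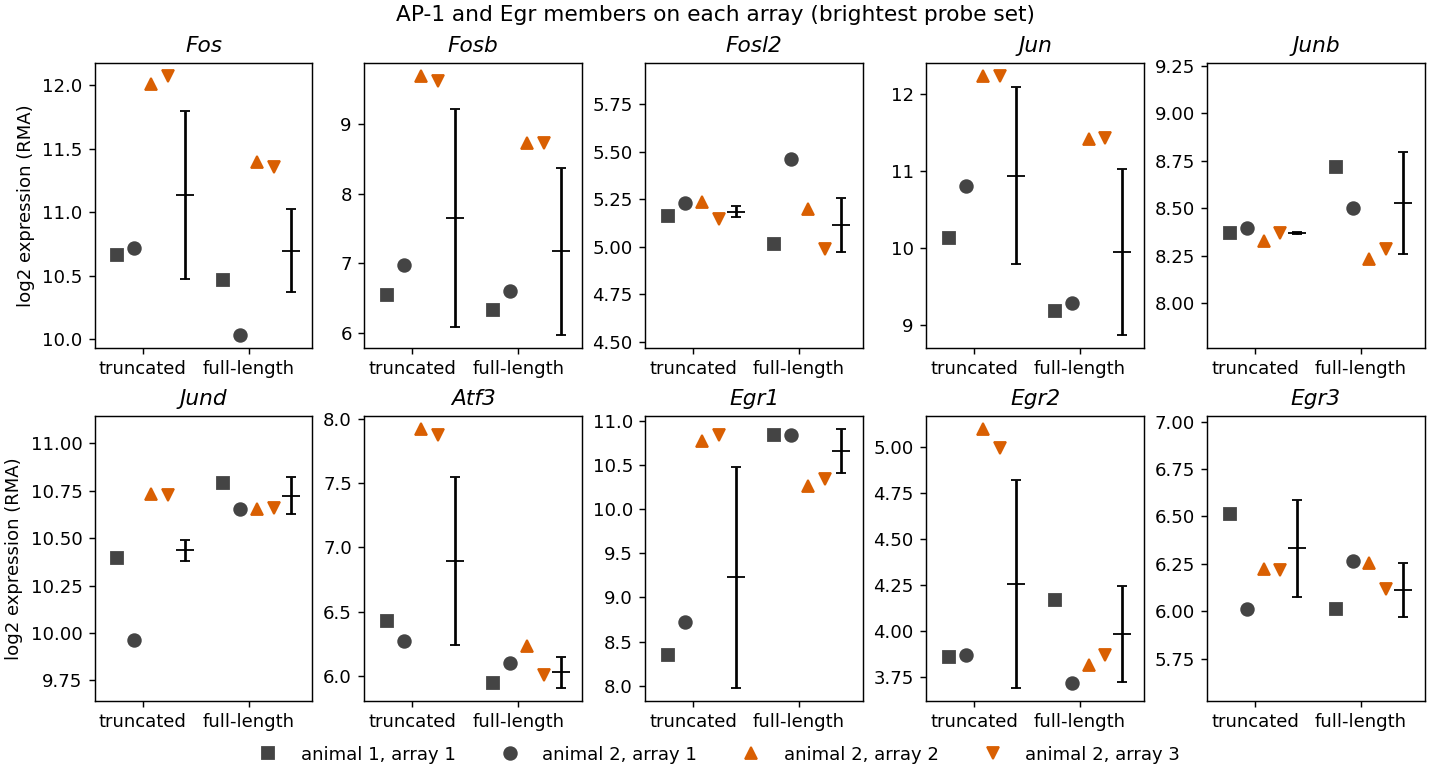
Log2 expression (vertical axis) of the brightest probe set of each member on the 4 truncated and 4 full-length arrays, with squares for animal 1, circles for array 1 of animal 2 and orange triangles for arrays 2 and 3 of animal 2; horizontal ticks and bars at the right of each group give the mean ± SD over the 2 animals. Fos, Fosb and Jun have their 2 triangles above the grey symbols in each genotype, and Egr1 has its 2 lowest values on the array number 1 arrays of truncated mice.

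Among the Fos family, Fos, the founding member and the usual partner of Jun, was at 10.67, 10.72, 12.01 and 12.07 on the truncated arrays, against 10.47, 10.04, 11.40 and 11.36 on the full-length arrays. Arrays 2 and 3 were the highest in each genotype, and the genotypes overlapped. Fos averaged 11.13 ± 0.66 in truncated and 10.70 ± 0.33 in full-length mice (SD, n = 2 animals each), a difference of 0.44 with a 95% interval of -0.54 to 1.41 in limma (adjusted p = 0.721). Within array number 1 the difference was 0.44 and within arrays 2 and 3 it was 0.66. Without truncated animal 2 the difference was -0.03.

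Fosb, a Fos relative with strong activation domains, was at 6.54, 6.98, 9.69 and 9.62 on the truncated arrays, against 6.32, 6.60, 8.72 and 8.73 on the full-length arrays. Of all members it had the widest spread among arrays in each genotype, with a range of 3.14 in truncated and 2.41 in full-length mice. Its means were 7.65 ± 1.57 in truncated and 7.17 ± 1.20 in full-length mice (SD, n = 2 animals each), with a difference of 0.48 (limma, adjusted p = 0.887). Each truncated array lay above the full-length array of the same animal and number, by 0.30 on average for array number 1 and 0.93 for arrays 2 and 3. With the animal and array number as a replicate block the difference was 0.61 (limma, adjusted p = 0.0925). The SDs hold the difference between array numbers, and leaving out 1 animal unbalances these numbers: the difference was -0.36 without full-length animal 1 and -0.63 without truncated animal 2.

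Fosl2 (Fra-2), a Fos relative that lacks the strong activation domain of Fos, was measured by 2 probe sets that differed. The brighter, 1422931_at, was at 5.16, 5.23, 5.24 and 5.15 in truncated mice, against 5.02, 5.46, 5.20 and 4.99 in full-length mice, with a difference of 0.07 (limma, adjusted p = 0.937). The dimmer, 1437247_at, was at 4.94, 5.10, 4.66 and 4.76 in truncated mice, against 4.13, 3.67, 4.28 and 4.36 in full-length mice, with a difference of 0.77. The genotypes did not overlap for the dimmer probe set and overlapped for the brighter, so the size of the Fosl2 difference rests on the choice of probe set. Of all genes tested, 10.3% had such a gap with higher values in truncated mice, by their brightest probe set. The brighter probe set differed by -0.040 within array number 1 and 0.099 within arrays 2 and 3, and the dimmer by 1.12 and 0.39. Its levels lie near the median over all probe sets of 4.75, where RMA draws values together.

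Among the Jun family, Jun, which pairs with Fos and with itself, was at 10.13, 10.80, 12.23 and 12.24 on the truncated arrays by its brighter probe set 1417409_at, against 9.19, 9.28, 11.41 and 11.43 on the full-length arrays. Each truncated array lay above its full-length counterpart of the same animal and array number, but the full-length arrays 2 and 3 lay above the truncated arrays of number 1. Jun averaged 10.94 ± 1.15 in truncated and 9.95 ± 1.08 in full-length mice (SD, n = 2 animals each), a 1.99-fold difference (0.99 on the log2 scale, 95% interval -0.83 to 2.82) that did not pass in limma (adjusted p = 0.644). The other probe set, 1448694_at, was at 7.79, 7.96, 10.05 and 10.17 in truncated mice, against 6.96, 6.63, 8.55 and 8.55 in full-length mice, a difference of 1.16.

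The Jun difference was 1.23 within array number 1 and 0.81 within arrays 2 and 3 by the brighter probe set, and 1.08 and 1.56 by the other. With the animal and array number as a replicate block on 8 arrays, Jun was the only member called, with a difference of 1.02 (limma, adjusted p = 0.0270), against 5.17% of all genes called higher in that fit. That fit treats the arrays of an animal as separate samples, so its p-values are too small. Over all alternatives the adjusted p of Jun in limma ran from 0.000328 to 0.986, and to 0.936 over those that kept both animals of each genotype. A fit with 1 animal left in a genotype takes its spread from the other genotype. The difference on animal means was 0.18 without truncated animal 2, 0.23 without full-length animal 1, 1.75 without full-length animal 2 and 1.81 without truncated animal 1, and it was 0.64 without array 1 of full-length animal 2. Without both full-length arrays of number 1 the difference was -0.48, since the remaining full-length value then comes from arrays 2 and 3 alone.

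Junb, a Jun relative that can oppose Jun and acts as a brake on myeloid growth in mice, was at 8.37, 8.40, 8.33 and 8.37 in truncated mice, against 8.72, 8.50, 8.23 and 8.29 in full-length mice. The truncated arrays spanned only 0.07 and lay within the range of the full-length arrays, with a difference of -0.16 (limma, adjusted p = 0.851, 95% interval -0.77 to 0.45) that was -0.23 within array number 1 and 0.090 within arrays 2 and 3. Jund, the Jun gene that is expressed steadily in resting cells, was at 10.40, 9.97, 10.73 and 10.73 in truncated mice by its brighter probe set, against 10.79, 10.65, 10.65 and 10.66 in full-length mice. The 2 truncated arrays of number 1 were the lowest, and the difference was -0.29 (limma, adjusted p = 0.658), with -0.54 within array number 1 and 0.076 within arrays 2 and 3. Its other probe set, 1440265_at, was dim, between 3.71 and 4.62 in truncated and between 3.88 and 4.25 in full-length mice.

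Atf3, a stress-induced factor that can pair with Jun and often represses inflammatory genes, was at 6.43, 6.27, 7.92 and 7.88 in truncated mice, against 5.94, 6.10, 6.23 and 6.01 in full-length mice. All truncated arrays lay above all full-length arrays, by a gap that was small for array number 1. Atf3 was the only member whose brightest probe set did not overlap between genotypes, 1 of 9, against 10.3% of all genes tested with such a gap and higher values in truncated mice. It averaged 6.89 ± 0.65 in truncated and 6.03 ± 0.12 in full-length mice (SD, n = 2 animals each), 1.82-fold apart (limma, adjusted p = 0.380). The difference was 0.33 within array number 1 and 1.78 within arrays 2 and 3, and it was positive under all 19 alternatives, from 0.33 to 1.78.

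Among the Egr genes, Egr1, a zinc finger factor induced by serum response factor and known to favour macrophage fate, was at 8.34, 8.72, 10.78 and 10.85 in truncated mice, against 10.84, 10.84, 10.26 and 10.35 in full-length mice. The truncated arrays of number 1 were the lowest of all, and truncated arrays 2 and 3 lay near the full-length arrays. Its mean was 9.23 ± 1.25 in truncated and 10.66 ± 0.25 in full-length mice (SD, n = 2 animals each), a difference of -1.43 with a 95% interval of -2.94 to 0.08 in limma (adjusted p = 0.382). The direction depended on the array number, with -2.30 within array number 1 and 0.51 within arrays 2 and 3.

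With array number 1 of each animal alone, Egr1 was called lower in truncated mice (limma, adjusted p = 2.27e-08), against 11.8% of all genes called lower in that fit. Jun was called higher there (difference 1.23, limma, adjusted p = 0.000328), against 14.5% of all genes called higher. The other 7 tested members were not called. The p-values of that fit rest on the spread between 2 arrays of a genotype, and the adjusted p of Egr1 in limma ran from 2.27e-08 to 0.960 over all alternatives, and to 0.711 over those that kept both animals of each genotype. On animal means, the Egr1 difference was -0.54 without truncated animal 1 and -2.32 without truncated animal 2.

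Egr2, known in macrophages and lymphocytes, did not pass the filter on low values. Its brighter probe set 1427683_at was at 3.86, 3.87, 5.10 and 4.995 in truncated mice, against 4.17, 3.72, 3.82 and 3.87 in full-length mice, and 1427682_a_at was at 2.95, 2.77, 3.90 and 3.88 in truncated mice, against 2.96, 2.91, 2.91 and 3.11 in full-length mice. By each probe set, truncated arrays 2 and 3 stood above the other 6 arrays. In the fit with no filter its difference was 0.27 (limma, adjusted p = 0.865), with -0.082 within array number 1 and 1.21 within arrays 2 and 3. Egr3, a relative induced in activated lymphocytes, was at 6.51, 6.01, 6.23 and 6.22 in truncated mice, against 6.01, 6.27, 6.25 and 6.12 in full-length mice, a difference of 0.22 (limma, adjusted p = 0.788), with 0.12 within array number 1 and 0.036 within arrays 2 and 3. Its other probe set was dim, between 2.38 and 2.87 in truncated and between 2.53 and 2.80 in full-length mice, with a difference of -0.17.

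**Figure D2:**
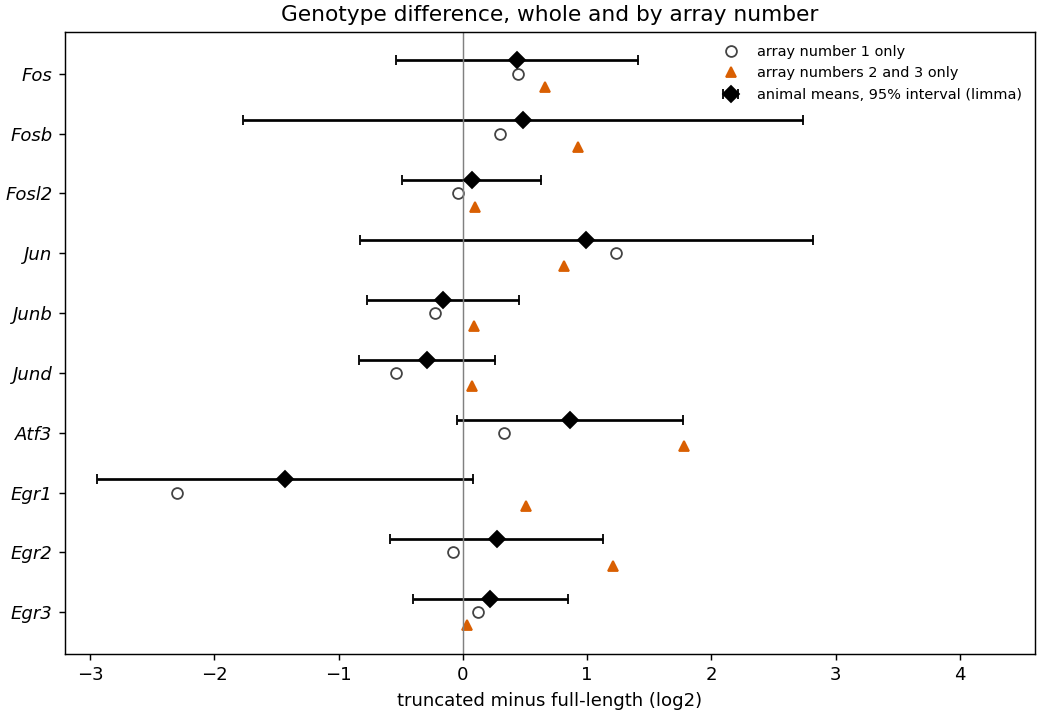
Truncated minus full-length difference in log2 expression (horizontal axis) for each member by its brightest probe set, from the animal means with the 95% interval of limma (diamonds; Egr2 from the fit with no filter), from array number 1 only (open circles) and from arrays 2 and 3 of animal 2 only (triangles). All 10 intervals cross 0, Fos, Fosb, Jun, Atf3 and Egr3 lie right of 0 by all 3 measures, and Egr1 lies at -2.30 for array number 1 and at 0.51 for arrays 2 and 3.

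For Fos, Fosb and Jun the difference between array numbers within animal 2 was larger than the difference between genotypes. Arrays 2 and 3 of truncated animal 2 lay above its array 1 by 1.32 for Fos, 2.68 for Fosb, 1.43 for Jun, 1.63 for Atf3 and 2.09 for Egr1. In full-length animal 2 the same differences were 1.34 for Fos, 2.12 for Fosb, 2.14 for Jun, 0.02 for Atf3 and -0.53 for Egr1. At a threshold of 1 log2 unit, set after these values were seen, 5 of 9 tested members were past it in truncated mice, against 2.72% of all genes, and 3 of 9 in full-length mice, against 8.85%. The 3 members past it in each genotype were Fos, Fosb and Jun, against 1.23% of all genes. Arrays 2 and 3 differed from each other by at most 0.066 for Fos, 0.069 for Fosb and 0.014 for the brighter Jun probe set. Arrays labelled as 1 animal were treated as repeats, so no test was made, and whether array 1 came from another cell preparation, extraction or labelling is not stated.

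**Figure D3:**
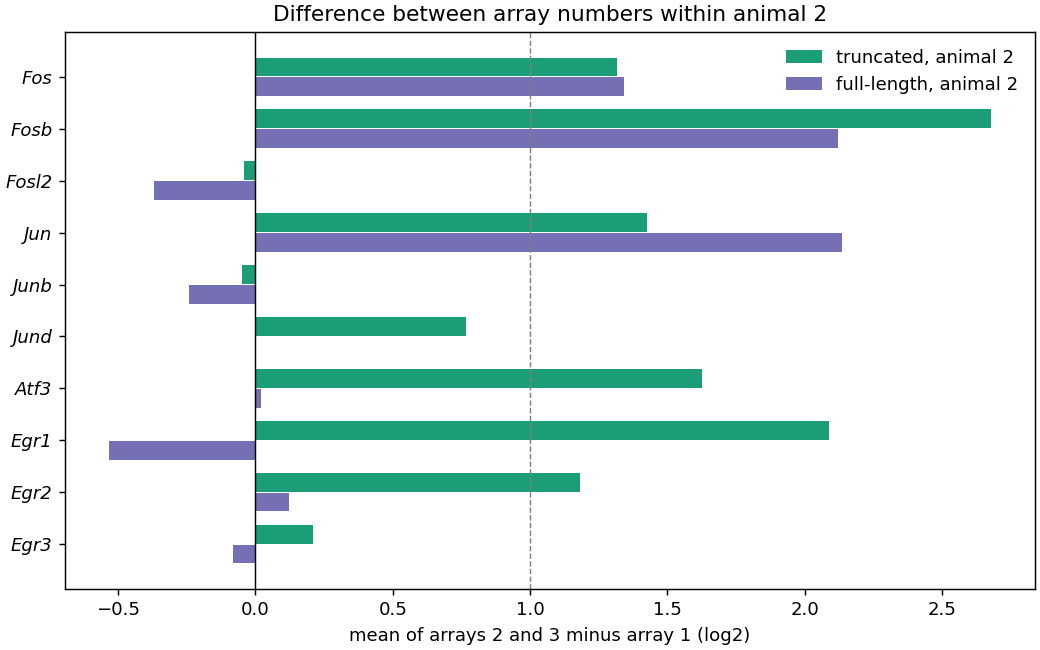
Mean of arrays 2 and 3 minus array 1 within animal 2 (horizontal axis, log2) for each member by its brightest probe set, in truncated (green) and full-length (purple) mice; the dashed line marks 1 log2 unit. Fos, Fosb and Jun pass the line in each genotype, while Atf3, Egr1 and Egr2 pass it in truncated mice alone.

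Other immediate-early genes were taken from a list of 39 symbols, of which all were measured and 36 were tested. On animal means limma called 0 of 36 after adjustment, and without it 7 were higher in truncated mice and 2 were lower at p under 0.05, against 8.81% and 5.29% of all genes. The lower ones were Ier3 (-0.82) and Myc (-0.69), named after their values were seen. Their median difference was 0.35, against -0.01 for all genes tested. The 3 largest differences were those of Gadd45b, a stress-induced gene that acts on p38 and JNK signalling, of Dusp2, a phosphatase of MAP kinases, and of Klf4, a zinc finger factor of monocytes.

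Gadd45b was at 8.36, 8.35, 9.16 and 9.10 in truncated mice, against 6.26, 5.91, 7.23 and 7.28 in full-length mice, without overlap (difference 2.08, limma, adjusted p = 0.0820; 2.27 within array number 1 and 1.87 within arrays 2 and 3). Klf4 was at 8.62, 9.37, 9.50 and 9.52 in truncated mice, against 6.90, 6.47, 7.78 and 7.72 in full-length mice, also without overlap (difference 1.93, limma, adjusted p = 0.109). Such a gap with higher values in truncated mice was seen in 10.3% of all genes tested. Dusp2 was at 7.39, 7.64, 11.05 and 11.18 in truncated mice, against 5.76, 5.90, 8.20 and 8.26 in full-length mice (difference 2.07, limma, adjusted p = 0.440), and the difference was 1.69 within array number 1 and 2.88 within arrays 2 and 3. Dusp2 thus had higher values on arrays 2 and 3 in each genotype, as Fos, Fosb and Jun had.

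Between array numbers, 4 of the 36 other immediate-early genes were past 1 log2 unit in each genotype, against 1.23% of all genes: Dusp2, Zfp36, Rgs1 and Cd69. Apart from Dusp2 they were named after their values were seen. Cd69, an early activation antigen of leukocytes, was at 4.76, 5.18, 8.77 and 8.59 in truncated mice, against 3.42, 3.37, 8.80 and 8.79 in full-length mice. The levels of 3.42 and 3.37 lie below the median over all probe sets of 4.75, so Cd69 differences taken from them are uncertain in size. Zfp36, which destabilises cytokine mRNAs, was at 8.94, 9.45, 11.003 and 10.99 in truncated mice, against 8.002, 8.49, 10.70 and 10.70 in full-length mice. Rgs1, a brake on G protein signalling, was at 7.14, 6.77, 9.41 and 9.47 in truncated mice, against 5.92, 5.28, 10.45 and 10.44 in full-length mice. All 3 genes divided the arrays by number in the same way as Fosb, and none of them separated the genotypes over all arrays. Within array number 1, all 3 were higher in truncated mice. Within arrays 2 and 3, Zfp36 was again higher in truncated mice, while Rgs1 was lower and Cd69 slightly lower.

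**Figure D4:**
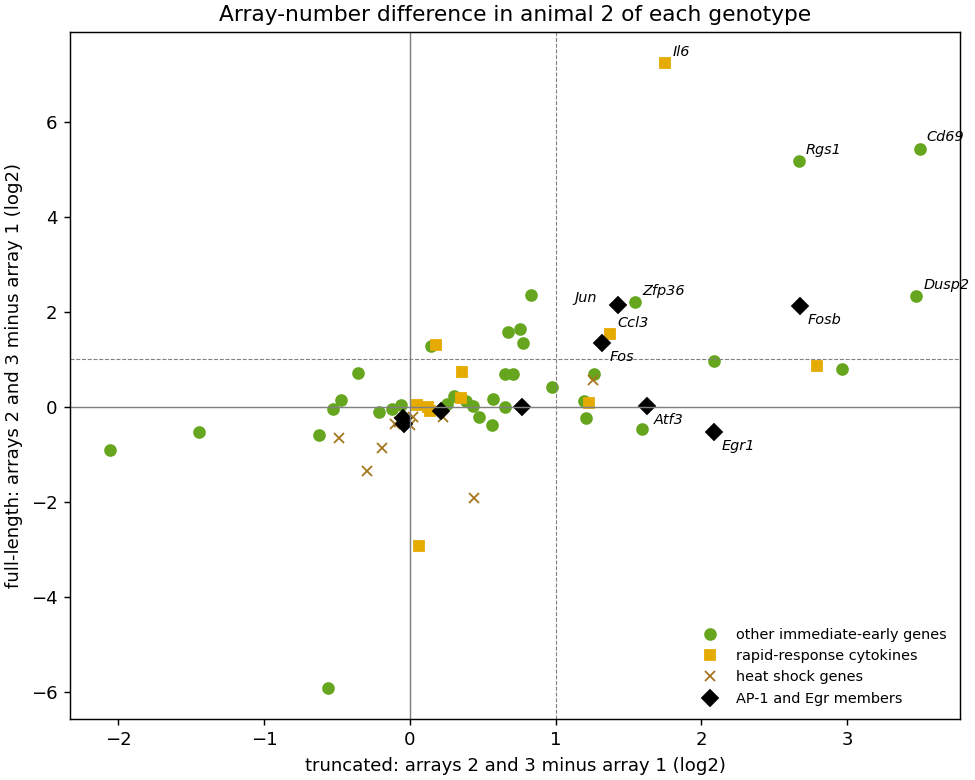
Mean of arrays 2 and 3 minus array 1 of animal 2 (log2) in truncated mice (horizontal axis) and in full-length mice (vertical axis), 1 point per gene, for the tested AP-1 and Egr members (black diamonds), other immediate-early genes (green), rapid-response cytokines (yellow) and heat shock genes (brown crosses); dashed lines mark 1 log2 unit. Fos, Fosb and Jun stand in the upper right corner with Dusp2, Zfp36, Rgs1, Cd69, Il6 and Ccl3. No heat shock gene does, and 1.23% of all genes tested do.

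Of the cytokine genes that respond to the same signals, 11 of 12 listed were tested and 0 were called in limma at an adjusted p under 0.05, with Tnf (0.65) higher and Il1b lower in truncated mice at an unadjusted p under 0.05, against 8.81% and 5.29% of all genes. Past 1 log2 unit between array numbers in each genotype were 2 of the 11, Il6 and Ccl3, against 1.23% of all genes. Tnf and Ccl3 are named after their values were seen. Il6, an inflammatory cytokine gene, was at 5.29, 6.39, 8.17 and 8.11 in truncated mice, against 2.79, 2.79, 10.06 and 9.96 in full-length mice (difference 1.23, limma, adjusted p = 0.830), and the difference was 3.05 within array number 1 and -1.87 within arrays 2 and 3. The level of 2.79 lies well below the median over all probe sets of 4.75, and RMA draws dim values together. Differences taken from it are thus uncertain in size. Cxcl2, a neutrophil attractant, was at 3.92, 4.36, 7.24 and 7.08 in truncated mice, against 6.36, 6.15, 6.96 and 7.02 in full-length mice (difference -1.46, limma, adjusted p = 0.483). Its difference was -2.11 within array number 1 and 0.16 within arrays 2 and 3. Like Egr1, it was lowest on the truncated arrays of number 1. Il1b, the interleukin-1 beta gene, had a difference of -1.97 (limma, adjusted p = 0.266) that was -2.97 within array number 1 and -0.12 within arrays 2 and 3.

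Of 10 heat shock genes, which encode chaperones induced by protein damage, 0 were called in limma. Hspb1 and Hspa1a were higher and 0 were lower in truncated mice at an unadjusted p under 0.05, against 8.81% and 5.29% of all genes. Past 1 log2 unit between array numbers in each genotype were 0 of the 10, which is near the 1.23% of all genes. The largest differences were 1.42 for the small chaperone gene Hspb1 (limma, adjusted p = 0.208), 0.73 for Hspa1a (adjusted p = 0.345) and -0.36 for Hsp90aa1 (adjusted p = 0.587). The median difference between arrays 2 and 3 and array 1 was -0.04 in truncated and -0.37 in full-length mice for this list, against 0.61 and 0.15 for the other immediate-early genes and -0.03 and 0.00 for all genes tested.

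The Egr partner list held Nab1, Nab2, Egr4 and Wt1, of which 3 were tested and 0 called in limma. Of the 3, 0 were higher and 1 was lower in truncated mice at an unadjusted p under 0.05, against 8.81% and 5.29% of all genes. Nab2, a co-repressor of Egr proteins whose gene is itself an Egr target, was at 5.21, 5.22, 6.41 and 6.40 in truncated mice, against 6.94, 7.22, 6.56 and 6.60 in full-length mice. Its 2 lowest values were on the same truncated arrays of number 1 as those of Egr1 (difference -1.26, limma, adjusted p = 0.192). The Nab2 difference was -1.87 within array number 1 and -0.18 within arrays 2 and 3. Over the 8 arrays, which share animals and array numbers, Nab2 had a Pearson's r of 0.923 with Egr1 and of -0.041 with Fos. Nab1 (difference -0.23) and Egr4 (0.08) differed less.

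Among other basic leucine zipper genes, 18 of 20 listed were measured and all 18 were tested, with 0 called in limma. At an unadjusted p under 0.05, Batf, Batf3, Jdp2, Maf and Nfil3 were higher and Ddit3 was lower in truncated mice. These were 5 and 1 of 18, against 8.81% and 5.29% of all genes. Batf, Batf3 and Ddit3 are named after their values were seen. Jdp2, a Jun dimerization partner that represses AP-1, was at 8.05, 8.06, 8.18 and 8.03 in truncated mice, against 5.34, 5.20, 6.69 and 6.53 in full-length mice. Nfil3, a repressor known from lymphoid and myeloid development, was at 7.85, 8.27, 7.33 and 7.59 in truncated mice, against 5.04, 4.94, 6.02 and 6.24 in full-length mice. The genotypes were apart on all arrays for each of these genes, as for 10.3% of all genes with higher values in truncated mice, with differences of 2.33 for Jdp2 and 2.40 for Nfil3 (limma, adjusted p = 0.0819 each). Within array number 1 the differences were 2.78 for Jdp2 and 3.07 for Nfil3, and within arrays 2 and 3 they were 1.496 for Jdp2 and 1.33 for Nfil3. Maf, a large Maf factor of macrophages, had a difference of 1.33 (limma, adjusted p = 0.294). The list as a whole had a median difference of -0.16, against -0.01 for all genes.

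Among upstream kinases and serum response partners, 16 of 20 listed were measured and 15 tested, with 0 called in limma. Of the 15, 3 were higher and 0 lower in truncated mice at an unadjusted p under 0.05, against 8.81% and 5.29% of all genes. Elk3, a ternary complex factor that works with serum response factor, was at 6.54, 7.05, 6.09 and 6.41 in truncated mice, against 4.51, 4.06, 5.35 and 5.51 in full-length mice (difference 1.79, limma, adjusted p = 0.0820), with 2.51 within array number 1 and 0.83 within arrays 2 and 3. The muscle and myeloid enhancer factors Mef2c and Mef2a had differences of 1.16 (limma, adjusted p = 0.257) and 0.66 (limma, adjusted p = 0.316). Each of these 3 genes had all its truncated arrays above all its full-length arrays, as had 10.3% of all genes tested.

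Cell type markers moved with genotype and with array number. The mean log2 level of 10 erythroid markers was 9.13, 9.09, 8.02 and 8.03 in truncated mice, against 10.19, 10.20, 7.80 and 7.96 in full-length mice. That of 5 primary granule markers was 10.66, 10.75, 11.42 and 11.49 in truncated mice, against 4.94, 4.84, 9.99 and 10.03 in full-length mice. The 12 monocyte and macrophage markers lay between 7.79 and 8.41 in truncated and between 6.05 and 6.76 in full-length mice. The 8 neutrophil markers lay between 10.64 and 10.72 in truncated mice, against 7.26, 7.08, 8.91 and 8.88 in full-length mice. The erythroid level was thus lower and the primary granule level higher on arrays 2 and 3 in each genotype, where Fos, Fosb and Jun were higher. In truncated animal 2 the granule markers rose unevenly, by 2.35 for Elane, 0.95 for Ms4a3, 0.27 for Prtn3, 0.03 for Mpo and -0.09 for Ctsg. The part of cell composition in the member values was not tested, and in bulk samples fewer cells of a type and less RNA per cell cannot be told apart.

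By their means, the other marker lists shifted less or in 1 genotype. The 7 mast cell markers lay between 7.64 and 7.78 in truncated mice, against 6.76, 6.85, 8.87 and 8.92 on the full-length arrays, and the 7 B cell markers were at 5.30, 5.22, 6.08 and 6.17 in truncated mice, against 4.81 to 4.91 in full-length mice. The 7 T and NK cell markers lay between 4.57 and 4.68 in truncated and between 4.46 and 4.73 in full-length mice, the 6 megakaryocyte markers between 5.77 and 6.03 in truncated and between 5.20 and 5.56 in full-length mice, and the 7 stromal and endothelial markers between 4.69 and 4.97 in truncated and between 4.55 and 5.15 in full-length mice. Cpa3, Kit and other mast cell genes are also expressed in progenitors, and RMA gives no value of 0, so absence of a type was not read from these levels.

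The genes whose profile was most like that of Fos over the 8 arrays, by Pearson's r, were Ndrg1 (0.995), a gene induced by stress and low oxygen, Phka2 (0.989), a subunit of phosphorylase kinase, Gpr171 (0.986), Kif21b (0.985), a kinesin, and Tubb1 (0.983), the beta tubulin of platelets. Ndrg1 was at 5.92, 6.07, 7.28 and 7.44 in truncated mice, against 5.67, 5.46, 6.69 and 6.70 in full-length mice, the same division by array number as Fos. Among the members, Fos had an r of 0.958 with Fosb, 0.959 with Jun, 0.790 with Atf3, 0.285 with Egr1 and -0.61 with Junb. Since the arrays fall into sets by number, these r values describe that division and carry no p.

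The genes most like Egr1 were Gdpd3 (0.990), Gga2 (0.979), a Golgi sorting adaptor, Dyrk3 (0.978), a kinase known in erythroid cells, Rcn1 (0.976) and Slc6a20a (0.975), an amino acid transporter. Gdpd3 was at 7.90, 7.78, 10.70 and 10.78 in truncated mice, against 10.80, 10.95, 10.29 and 10.33 in full-length mice, with its lowest values on the same truncated arrays of number 1. Jund was the member closest to Egr1, with an r of 0.843. The genes most like Junb were Trim35 (0.996), the splicing factor gene Prpf6 (0.989), Fam25c (0.982), Coa6 (0.981), a factor for cytochrome oxidase assembly, and Cklf (0.981). Trim35 was at 8.54, 8.60, 8.45 and 8.57 in truncated mice, against 9.38, 8.90, 8.29 and 8.42 in full-length mice, highest on the full-length arrays of number 1.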

How the data were processed

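Total RNA of spleen cells from leukemic mice was hybridised to Affymetrix mouse arrays, per the labels' protocols. The deposited table holds log2 values of 45101 probe sets for 8 arrays, and the authors made them with RMA, per the submitters' processing notes, with no version given. No source states the log base, and 2 was inferred from how far the values reach. RMA corrects background, sets the arrays to a common distribution and draws dim values together. The median of an array lay between 4.71 and 4.78, and the number of arrays limits the precision.

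The members, gene lists and named genes were chosen with earlier results of these data known. Platform annotation gave 1 symbol for 34945 probe sets, several for 932 and none for 9160, and only the first kind was used. Each gene took its brightest probe set on average, and genes above the median over all probe sets (4.75) in 2 or more animals were tested, which left 11417. Arrays of an animal were averaged, and the animal means were fitted over all genes in R 4.3.3 (limma 3.58.1, functions lmFit and eBayes), with 2 residual and 3.24 prior degrees of freedom and Benjamini-Hochberg adjustment. With 2 animals a genotype, the smallest p of an exact two-sided permutation test is 0.333, so none is given. The fit was also run on simulated data with independent animals. These had no division by array number, so that run cannot show how the fit behaves under the division seen here. Of 183 listed symbols, 168 were measured. RefSeq promoters were found for 8 of 10 members, and those of Fos, Jun and Atf3 are printed. The rule for named genes took all members, the 3 genes of each pathway list with the largest absolute difference, and the 5 genes most correlated with Fos, Junb and Egr1. Genes outside it are marked as named after their values were seen.

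Arrays of the same animal and array number in the 2 genotypes deviated together from their genotype means, with correlations over genes of 0.301, 0.145, 0.230 and 0.214. All are above 0.1, so the numbers were taken to pair the arrays, on these values and not on the labels. Arrays of different number were not compared between genotypes. These values therefore cannot tell a pairing from the division by array number that each genotype has, and the pairing remains an assumption of the block. The alternatives in the closing section include this block.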

Additional observations from a re-analysis of the deposited data

Results flagged for a closer look

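Egr1 differed between the genotypes in opposite directions by array number, at -2.30 within array number 1 and 0.51 within arrays 2 and 3. The same held at smaller size for Junb (-0.23 and 0.0896), for the brighter Jund probe set (-0.54 and 0.0755) and for the dim Egr3 probe set 1436329_at (-0.28 and 0.17). These differences between array numbers were not tested.

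Among 30 sets of 4 arrays, 3 had an array far from the other three by Dixon's ratio, where chance flags about 1 in 20 sets of independent samples. These sets are not independent, since 3 of their 4 arrays are repeats of animal 2 and each of the 3 arrays that stood apart is the single array of animal 1. The dim Jund probe set 1440265_at was at 4.62 on the array of truncated animal 1 and at 4.25 on the array of full-length animal 1. The brighter Jund probe set was at 10.79 on the array of full-length animal 1.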

How the results depend on the processing

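A total of 19 alternatives were run. The number of members called was 0 on animal means, 1 with the replicate block and 2 with array number 1 of each animal, and 0 in the other tested settings. The number of all genes called was 0 on animal means, 345 with the animal as a random block, 946 with the replicate block, 3009 with array number 1 alone, 592 with arrays 2 and 3 averaged before array 1 and 3 with a robust prior that follows intensity, and it ran from 0 to 666 when an animal or an array was left out. Of these fits with an animal or array left out, the one without full-length animal 2 gave 666. Without both full-length arrays of number 1 the differences turned to -0.24 for Fos, -1.07 for Fosb, -0.48 for Jun and 0.11 for Junb. Within arrays 2 and 3 they turned to 0.0896 for Junb, 0.0755 for Jund and 0.51 for Egr1, and with array number 1 alone to -0.0402 for Fosl2. Leaving out an animal or an array gave -0.0315 to 0.90 for Fos, -0.63 to 1.59 for Fosb, 0.18 to 1.81 for Jun, -2.32 to -0.54 for Egr1, -0.0311 to 0.17 for Fosl2 and -0.35 to 0.0283 for Junb. A fit with 1 animal left in a genotype assumes that it varies like the other genotype. Atf3 and Egr3 kept their direction in all settings that gave them a value, Egr3 by its brightest probe set. The dim Egr3 probe set 1436329_at went the other way on animal means, with a difference of -0.17. The block changed no member's call other than that of Jun. The count of 3 members past 1 log2 unit between array numbers in each genotype was also 3 with array 2 or array 3 alone, which was tried after the values were seen. The cause of these dependencies was not tested. Arrays 2 and 3 within a genotype come from 1 animal, so values within them have no animal replicate.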
